A study of Homo sapiens with 15 samples.

Results

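Of the 31735 FOXA1 peaks listed in 22Rv1 cells with induced wild-type (WT) FOXA1 and DMSO, 8812 (27.8%) overlapped no peak of 10 other lists, and these sites are described here. The 10 lists were both induced C258A lists (DMSO and WX-02-23), both lists without doxycycline, and the 6 lists from parental cells, and an overlap of 1 bp was enough to remove a peak. The 12 lists of the series held 249079 peaks together. The sites were chosen by the presence and absence of calls in these 11 lists, so their number is a description of the rule. The list from WT cells with WX-02-23 was the one ChIP list that the rule did not use.

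FOXA1 is a forkhead transcription factor. It is called a pioneer factor because it can bind its DNA motif in compacted chromatin and make the site accessible to other factors. In prostate epithelium and prostate carcinoma it marks enhancers and works together with the androgen receptor. FOXA1 binding depends on the amount of the protein as well as on chromatin, so an induced transgene can add sites to those that the endogenous protein occupies.

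The 22Rv1 line is an established human prostate carcinoma line. Both engineered lines stably expressed PHF5A with the Y36C change and carried a doxycycline-inducible FOXA1, which was WT in one line and C258A in the other. PHF5A is a subunit of the splicing complex that pladienolide-type inhibitors bind, and Y36C is a known resistance change. C258A replaces a cysteine of the forkhead domain. Per the labels, each engineered line was profiled in 3 states: DMSO without doxycycline, doxycycline plus DMSO, and doxycycline plus the stereoprobe WX-02-23 at 20 µM. The unmodified parental cells received DMSO at 0.1%, WX-02-23 or WX-02-43 at 20 µM, PladB, a FOXA1 siRNA (siFOXA1) or a control siRNA (siControl). Compound and DMSO exposures lasted 3 h. The labels disagree on the parental PladB dose, with 100 nM in the sample's own label and 10 nM in the shared protocol. Whether a line is 1 clone, the promoter of the transgene, and the dose and time of doxycycline are not given in the sources used here. The antibody was against FOXA1, and the labels name no tag that would separate induced from endogenous protein.

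There was 1 library per condition. Differences between conditions therefore cannot be set against a spread between replicates, and no p-value is given. The lists ranged from 3018 peaks with siFOXA1 to 34119 with siControl. Without doxycycline the WT line had 8575 peaks and the C258A line 12752, far fewer than the 31735 of the induced WT list with DMSO. Absence from the uninduced lists was not checked at equal length. The 2 induced C258A lists held 13299 peaks with DMSO and 20609 with WX-02-23, and the WT list with WX-02-23 held 25849. Read totals were not analysed here, so the depth behind each list is unknown. Every peak carries the authors' own score, which is used only to rank peaks within a list. Intervals of a share are Wilson 95% binomial intervals of peak counts, those of a median are order-statistic intervals, and those of a difference between score-standardised shares are normal approximations. All cover counting error only.

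Every one of the 31735 WT peaks fell into 1 of 4 classes. The 8812 sites above are called new in the WT line only. A further 9693 peaks (30.5%) were absent from the parental and uninduced lists but called in at least 1 induced C258A list, and are called new in both lines. The remaining peaks were known sites, called in a parental or uninduced list: 8663 (27.3%) were also called in induced C258A cells and 4567 (14.4%) were not.

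The name WT-only rests on lists of very different length. The same rule was turned round for the C258A line, as peaks with doxycycline and DMSO that overlapped no list from induced WT, uninduced or parental cells. It gave 521 sites, 3.92% (3.60 to 4.26%) of 13299 peaks, against 27.8% (27.3 to 28.3%) in the WT line. When the 4 induced lists were each reduced to their 13299 highest-scoring peaks, the WT line held 1813 sites of its own, 13.6% (13.1 to 14.2%). At that length the C258A line held 2259, 17.0% (16.4 to 17.6%). The parental and uninduced lists kept their full length in both counts. So the order of the lines turned round at equal length. The C258A DMSO list kept all its peaks in this count, whereas both WT lists lost their lowest-scoring ones. All but 521 of the 2259 C258A sites overlapped a peak of a WT list as deposited. The order thus depends on the cut, and these lists do not settle which line held more new sites. When only the WT DMSO list was shortened to 13299 peaks, 1247 sites remained.

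**Figure D1:**
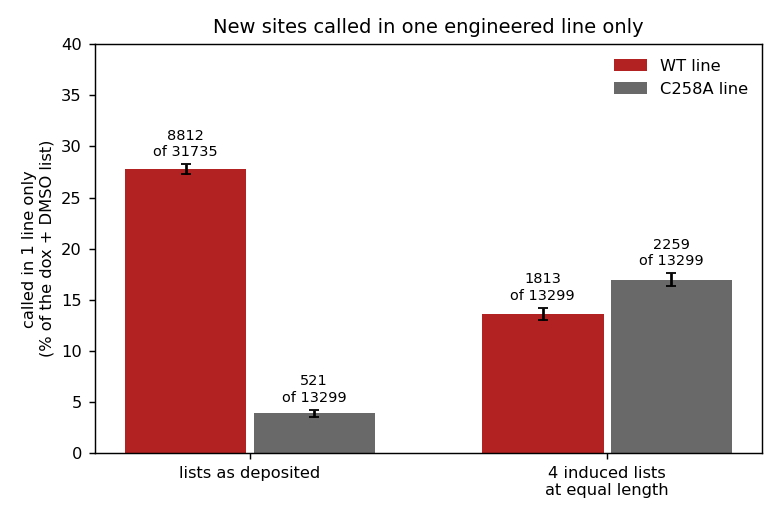
Bars show the share of peaks with doxycycline and DMSO (percent, y axis) that were called in 1 engineered line only, for the WT and the C258A line, with lists as deposited (left) and with the 4 induced lists at 13299 peaks (right). Whiskers are Wilson 95% intervals. The WT bar is the higher one on the left (27.8% against 3.92%) and the lower one on the right (13.6% against 17.0%).

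The sites were mostly weak peaks of their list. Their median score was 132 (131 to 134), with quartiles of 106 and 184, against 250 for sites new in both lines and 334 for known sites called in induced C258A cells. Known sites not called in induced C258A cells had a median of 132 (130 to 134). The WT-only sites thus lay at the same level of score as known sites that the C258A lists also lacked. The highest score among them was 987, which ranked 1270 in the WT list, whereas sites new in both lines reached 3148.

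Their share of the list grew as scores fell. Among the 3174 peaks of the highest decile by score, 22 (0.693%) were WT-only. The share was 4.70% in the second decile, 27.2% in the fifth and 52.7% in the last, where scores ran from 90 to 102. Scores over 200 were held by 1768 WT-only sites (20.1%) and scores over 500 by 53. The share of sites new in both lines was 35.2% in the highest decile, 44.8% in the second, 35.1% in the fifth and 13.1% in the last.

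**Figure D2:**
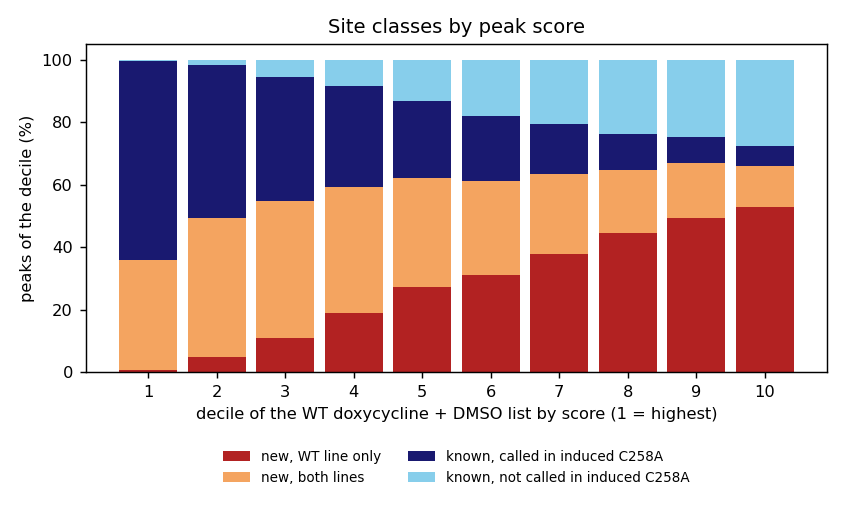
Stacked bars give the share of each site class (percent, y axis) in each decile of the WT doxycycline and DMSO list by score, from the highest decile (1) to the lowest (10). The WT-only share grows from 0.693% to 52.7% as scores fall.

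Width followed score. The median width of the WT-only sites was 560 bp (558 to 564), with a maximum of 2695 bp, and together they covered 5.06 Mb of the 21.3 Mb in the WT list. Sites new in both lines had a median of 668 bp. Averaged over the score mix of the WT-only sites this difference was gone. The median widths were then 570.5 bp for WT-only sites and 569.7 bp for sites new in both lines. In the upper deciles WT-only sites were the wider ones, with 833 against 790.5 bp in the second and 698 against 681 bp in the fourth. In the last decile the values were 469 and 470 bp. Known sites were wider at the same score mix, at 597 bp where C258A cells also had a call and 592 bp where they did not. By decile, known sites called in induced C258A cells were narrower than WT-only sites from the first (900 against 1001 bp) to the fifth (652 against 654 bp). They were wider from the sixth (632 against 613 bp) on.

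The edge of the rule touched few sites. The WT-only sites lay a median of 13.7 kb from the nearest peak of any of the 10 lists. Of the 8812, 69 had such a peak within 100 bp and 372 (4.22%) within 500 bp, and the smallest gap was 3 bp. Just outside the rule, 41 of the other 22923 peaks overlapped another list by 100 bp or less, the smallest by 2 bp. Median scores were 122 for the 69 sites just inside and 115 for the 41 just outside. A larger group of near misses came from single lists: 4315 WT peaks were called in exactly 1 of the 10. For 3213 of these the list was C258A with WX-02-23, and for 490 C258A with DMSO. The siFOXA1 list, which held 3018 peaks, was never the only one.

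The distance to the nearest parental DMSO peak was measured from edge to edge, with no reference for randomly placed sites. The median gap from a WT-only site to the nearest parental DMSO peak was 30.6 kb (29.6 to 31.7), with quartiles of 12.1 and 65.0 kb. Within 1 kb of such a peak lay 2.89% of the sites, within 10 kb 21.3%, within 50 kb 66.0% and within 100 kb 86.1%. Sites new in both lines had a median of 33.1 kb (31.9 to 34.2), with 20.3% within 10 kb and 64.5% within 50 kb. The intervals of the medians do not overlap, but the difference is 2.49 kb, and WT-only sites were nearer in 8 of 10 deciles of score.

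**Figure D3:**
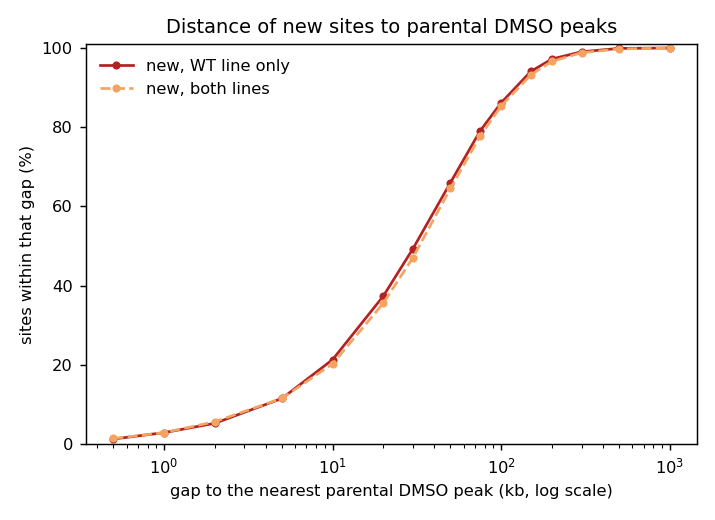
Curves give the share of new sites (percent, y axis) that lie within a given gap of the nearest parental DMSO peak (kb, log scale), for sites in the WT line only (solid) and in both lines (dashed). The curves run close together, with medians of 30.6 and 33.1 kb.

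The spacing of the WT-only sites among themselves was measured with no reference for randomly placed sites. Their median gap to the next WT-only site was 67.4 kb, and 1372 (15.6%) had one within 10 kb. The nearest peak of the WT list was of any class, a median of 17.5 kb away, and for 32.5% of the sites it was another WT-only site, a class that makes up 27.8% of the list. For sites new in both lines the nearest peak was of the same class in 38.6% of cases, against 30.5% of the list. The 8812 sites fell into 2395 windows of 1 Mb, with a median of 3 per window, and 514 windows held a single one. In 82 windows there were 10 or more, which together held 992 sites (11.3%).

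The fullest window, chromosome 11 from 49000001 to 50000000 (hg19), held 20 WT-only sites with scores from 90.2 to 442. It held 5 sites new in both lines, and 8 of its 20 WT-only sites were called with WX-02-23. The next, chromosome 1 from 188000001 to 189000000, held 18 WT-only sites beside 26 new in both lines. Of these 18, 5 were called with WX-02-23. A tie at 17 sites followed: chromosome 2 from 188000001 to 189000000, chromosome 7 from 9000001 to 10000000 and chromosome 7 from 13000001 to 14000000. These 5 windows were not bare in parental cells, with between 10 and 18 parental DMSO peaks each. Only 10 of the 2395 windows had no parental DMSO peak, and they held 12 sites.

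Relative to parental peaks, the WT-only sites were scarce on gene-dense chromosomes and frequent on most gene-poor ones. Chromosome 13 held 4.81% of WT-only sites against 3.22% of parental DMSO peaks, a ratio of 1.49, and chromosome 4 held 8.93% against 6.65%. Chromosome 19, the most gene-dense, held 0.613% (54 sites) against 2.11%, a ratio of 0.29, and chromosome 17 held 1.79% against 2.83%. Chromosome 8 went against the pattern, with few genes per Mb and a ratio of 0.88. Over the 22 autosomes the ratio correlated with protein-coding genes per Mb at a Spearman rho of -0.82. This is a description across chromosomes that share the same 2 libraries, with gene counts from GRCh38.p14 and chromosome length taken as the furthest peak end.

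The shift was not limited to WT-only sites: in sites new in both lines the rho was -0.87, and known sites of the WT list that were called in induced C258A cells also differed from parental peaks. On the 5 autosomes with the most genes per Mb (11, 16, 17, 19 and 22) lay 8.59% (8.02 to 9.19%) of WT-only sites, 7.06% (6.56 to 7.58%) of sites new in both lines and 9.82% (9.21 to 10.5%) of known sites called in induced C258A cells. Parental DMSO peaks had 12.7% (12.3 to 13.1%) there, and known sites not called in induced C258A cells, which have the same median score as the WT-only sites, had 11.1% (10.2 to 12.0%). On the 5 with the fewest (4, 8, 13, 18 and 21) the shares were 22.6% (21.7 to 23.5%) for WT-only sites, 25.7% for sites new in both lines, 21.8% (20.9 to 22.7%) for known sites called in induced C258A cells, 18.0% for parental DMSO peaks and 18.8% (17.7 to 19.9%) for those known sites. On the gene-poor set the intervals of WT-only sites and of known sites called in induced C258A cells overlapped. As a share of all WT peaks on a chromosome they varied little, from 23.6% on chromosome 8 to 32.1% on chromosome 5.

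**Figure D4:**
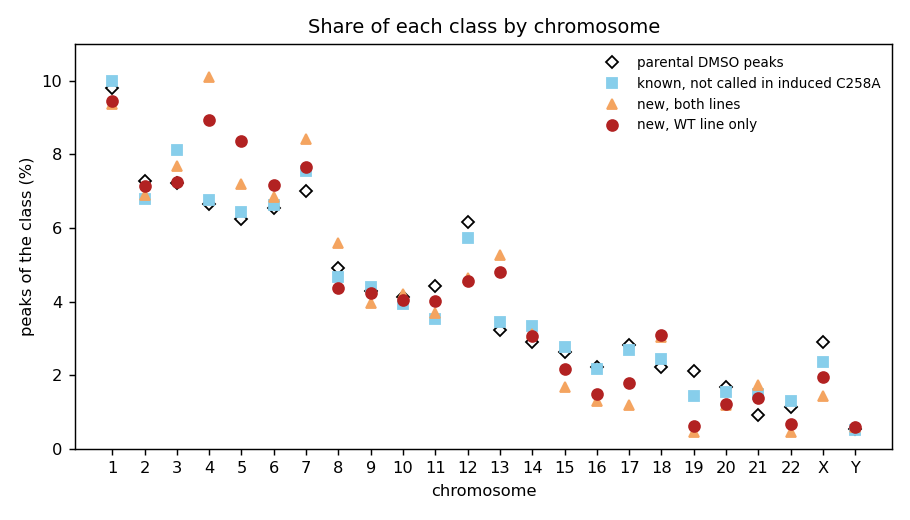
Points give the share of each class (percent, y axis) on each chromosome, for WT-only sites, sites new in both lines, known sites not called in induced C258A cells, and all parental DMSO peaks. New sites lie above the parental points on chromosomes 4, 5, 13, 18 and 21 and below them on 12, 16, 17, 19 and 22.

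The list from WT cells with WX-02-23 shows which sites were called again in a separate library of the same line. Of the 8812 sites, 3441 (39.0%, 38.0 to 40.1%) were called with WX-02-23, against 60.7% of all WT DMSO peaks. The share was 71.4% (70.5 to 72.3%) for sites new in both lines, 82.7% for known sites called in induced C258A cells and 38.3% (36.9 to 39.7%) for known sites not called there. Absence from the WX-02-23 list went with low score: the 5371 sites not called had a median score of 121 and a median width of 539 bp, against 158 and 595 bp for the 3441 called. Only 1 library of WT cells with doxycycline and DMSO was analysed here, so the share that any second library would recall is unknown and the part of the compound in it was not tested.

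At equal score the gap to the other new sites was smaller and still present. The share of WT-only sites called with WX-02-23 fell from 90.9% (20 of 22) in the highest decile to 53.1% in the fifth and 23.1% in the last. Sites new in both lines were called more often in all 10 deciles, by 6.77 to 15.0 percentage points. Averaged over the score mix of the WT-only sites, they would reach 51.0%, a difference of -12.0 points (-13.7 to -10.2) for the WT-only sites. Sites new in both lines were chosen by a call in a further induced library, and WT-only sites by the lack of one. For 3213 of the 9693 sites new in both lines, the only call in the 10 lists was in C258A cells with WX-02-23. The classes were thus unlike in repeat calls by the rule itself, and its part in the difference was not tested. Known sites called in induced C258A cells would reach 60.9%, and known sites not called there 38.8%, a difference of 0.297 points (-1.39 to 1.99). Where C258A cells had no call, new and known sites thus did not differ beyond counting error in this average. By decile, the known sites minus the WT-only sites ran from -4.81 to 9.09 points, and WT-only sites were lower in 5 of 10.

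**Figure D5:**
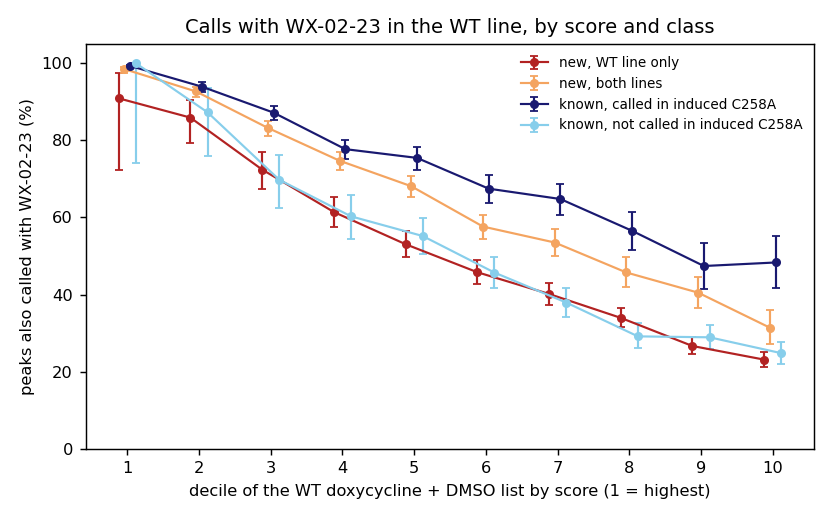
Points give the share of WT doxycycline and DMSO peaks that were also called with WX-02-23 in WT cells (percent, y axis) in each decile by score, for the 4 site classes, with Wilson 95% intervals. WT-only sites (20 of 22 in the first decile, 23.1% in the last) run along the known sites that induced C258A cells lacked and below the other 2 classes.

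The near misses show which library a site shared. The 490 peaks whose only other call was in C258A cells with DMSO were called with WX-02-23 in WT cells at 48.0% (43.6 to 52.4%), and WT-only sites of the same score mix at 48.1%. The 3213 peaks whose only other call was in C258A cells with WX-02-23 were called at 59.0% (57.3 to 60.7%), against 48.7% for WT-only sites of the same score mix. The 140 peaks whose only other call was in parental cells with WX-02-23 were called at 75.7% (68.0 to 82.1%), against 40.3%. Sharing a call with a WX-02-23 library thus went with more calls in the WT WX-02-23 list. For a call shared with C258A DMSO alone, no difference beyond counting error was measured. The 2 induced C258A lists also differ in length, with 20609 peaks for WX-02-23 and 13299 for DMSO. With 1 library each, compound, list length and depth cannot be told apart. Peaks whose only other call was parental DMSO (103 peaks), PladB (141) or siControl (155) were called at 38.8%, 27.0% and 33.5%, against 37.0%, 36.8% and 38.8% for WT-only sites. Of these 3, the interval for PladB (20.3 to 34.8%) lies below the WT-only value.

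Sites called again did not stand out in the WX-02-23 list. Their partner peaks there had a median score of 152, against 174 for the whole list, and the best ranked 157 of 25849. The partner was narrower than the DMSO peak in 2534 of 3441 pairs (73.6%), with median widths of 513 and 595 bp, and peaks of the WX-02-23 list were narrower in general (a median of 533 bp against 634 bp). The same 10-list rule applied to the WX-02-23 list gave 7553 peaks of 25849 (29.2%, 28.7 to 29.8%). Of these 7553 peaks, 3444 (45.6%, 44.5 to 46.7%) overlapped a WT-only site of the DMSO list. In the other direction, 3441 of the 8812 WT-only sites (39.0%) overlapped a peak of the whole WX-02-23 list.

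Calls with WX-02-23 varied little with the distance to parental peaks. Their range was wider between chromosomes, but these are more groups of fewer sites each, so the ranges cannot be compared. Sites within 10 kb of a parental DMSO peak were called at 42.2% (39.9 to 44.4%), where their scores alone gave 39.4%. Between 10 and 50 kb the share was 38.1%, between 50 and 100 kb 38.8%, and beyond 100 kb 37.7% (35.0 to 40.4%). Median scores in these 4 bins ran from 130 to 134. Across autosomes the share ran from 34.9% on chromosome 11 to 59.3% (46.0 to 71.3%) on chromosome 19, where scores alone gave 39.8% and the count was 32 of 54. Chromosome 22 followed with 50.8% (38.4 to 63.2%) of 59 sites, an interval that holds the 40.2% given by scores alone. Chromosomes 17 (45.6%, 38.0 to 53.3%) and 1 (43.1%, 39.8 to 46.5%) lay above the 37.6% and 39.7% given by scores. Chromosome 5, at 35.0% (31.6 to 38.5%), lay below its 39.1%. For the remaining autosomes the interval held the value given by scores. The chromosomes poorest in WT-only sites relative to parental peaks had the higher shares, with a rho of -0.63 over the 22 autosomes, given as a description. Shares by chromosome for the other WT peaks are not given here, so this pattern is not shown to be particular to WT-only sites.

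When a WT-only site was not called, a WX-02-23 peak was seldom beside it. The median gap from the 5371 sites to the nearest peak of that list was 24.1 kb. Within 500 bp 178 (3.31%) had one, and within 10 kb 1572 (29.3%). The same values for other WT peaks that were not called are not given here. Most sites that were not called thus had no WX-02-23 peak next to them.

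The strongest sites are given by position (hg19). The highest score, 987, was on chromosome 3 from 20626690 to 20627489, 37.3 kb from a parental DMSO peak. It was called with WX-02-23 with a score of 392 and ranked 4358 there. The next, on chromosome 6 from 38395129 to 38396099, scored 917 and had another WT-only site 2.57 kb away. It was also called with WX-02-23. A site that scored 910, on chromosome 3 from 65579672 to 65580681, lay 83.9 kb from any peak of the 10 lists and ranked 8702 with WX-02-23.

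The site on chromosome 7 from 122815920 to 122817029, scored 896. It ranked 1550 of 31735 with DMSO and 788 of 25849 with WX-02-23, in lists whose ranks cannot be compared. The site on chromosome 4 from 123916758 to 123917801 scored 849, and its nearest peak among the 10 lists, 8.98 kb away, was in C258A cells with DMSO. The last, on chromosome 2 from 203530375 to 203531471, scored 818 and was 76.4 kb from a parental DMSO peak. All 6 were called with WX-02-23, and the 4 highest of them are also the 4 highest-scoring sites among those called.

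Among sites not called with WX-02-23, the highest score was 721, on chromosome 7 from 28931088 to 28932286, where the nearest WX-02-23 peak was 7424 bp away. The next 3 each had another WT-only site close by. One, on chromosome 2 from 98191762 to 98192797, scored 626 and had a neighbour 2.50 kb away. Another, on chromosome 13 from 96164176 to 96165029, scored 563, and there the next WT-only site was 75 bp away and a WX-02-23 peak 103 bp away. The last, on chromosome 7 from 80901119 to 80902016, scored 518 and had a neighbour 1.82 kb away. On chromosome 13 a WX-02-23 peak thus lay just beyond the edge of the site.

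The site farthest from any parental DMSO peak was on chromosome 19 from 31585950 to 31586758, 1250 kb away. It was 704 kb from any peak of the 10 lists, the largest such gap of the 8812 sites. Its score was 244, and it was called with WX-02-23 at a score of 247. The other two, on chromosome 7 from 68041059 to 68041515 and on chromosome 10 from 132143909 to 132144312, lay 883 and 766 kb from a parental DMSO peak. Both had scores under 100, at 92.2 and 96.5, and neither was called with WX-02-23. Genes, promoters and DNA sequence at these positions were not analysed here, because no genome or annotation of hg19 was used.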

How the data were processed

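FOXA1 ChIP-seq peak lists of 12 samples were used, and 3 input samples were not analysed here. Per the submitters' processing notes, the tools included bcl2fastq and Bowtie2, and the build was hg19. The furthest peak ends, 249239322 on chromosome 1 and 59361844 on chromosome Y, fit that build. The peak names begin with MACS, and the caller's settings and control are not given in the sources used here. The deposited score per peak is the authors' own and is not defined in the files or labels. One list was deposited per library, so no peaks were called on pooled samples.

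Overlaps of at least 1 bp, gaps between peak edges, deciles of the WT list by score and windows of 1 Mb were computed with Python 3.11.15, pandas 2.3.3 and scipy 1.17.1. Overlaps were checked against bedtools 2.31.1 and tested on simulated data. Starts are printed counted from 1. Standardised shares weight the deciles by the number of WT-only sites in each. Named peaks are the 6 WT-only sites with the highest score, the 4 highest called and the 4 highest not called with WX-02-23, the 3 farthest from a parental DMSO peak, and the windows with the most sites, ties included. The members, lists and comparisons were chosen with earlier results of these data known. Forkhead words and gene lists were planned and not run, because no genome or annotation of hg19 was used. Depth is unknown, so precision beyond counting error cannot be given.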

Additional observations from a re-analysis of the deposited data

How the results depend on the processing

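Alternatives gave 44 values for 6 results. Of these, 27 lay inside the 95% interval of the reported value, or for counts within 1.5 times of it, and 17 did not. The score-standardised difference, its alternatives and the equal length of the 4 induced lists were chosen after seeing the data. The difference stayed negative in all 7 alternatives and moved only with the top 50% of the WT WX-02-23 list, to -5.76 points. That list also lowered the share called with WX-02-23 to 15.9%. All 7 alternatives kept classes that were chosen by calls in induced C258A lists. The count moved to 1979 with the top 50% of WT DMSO peaks, to 1247 with that list at 13299 peaks, and to 1813 with the 4 induced lists at 13299. In the first 2 of these settings the share called became 61.8% and 67.1%, the median score 244 and 282, and the median width 689 and 718 bp, since both keep high scores by construction. The median gap to a parental DMSO peak moved in the second alone, to 31789 bp. Without the C258A list with WX-02-23 the count was 12025, and the share became 44.4%, the score 142 and the width 574 bp. A reciprocal overlap of 50% moved the score to 135 and the width to 566 bp. A gap of 500 bp, autosomes alone, and leaving out the siFOXA1 list moved none of the values run under them. The forkhead alternatives were not run. No paired analysis was possible because each group had 1 library. The unknown depth of each library limits all counts, and 1 library per condition leaves every difference without a replicate check.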
